A study of Mus musculus with 19 samples.

Results

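The genes described here encode the plasma proteins of the complement and coagulation cascades, which circulate together and are made largely by the liver. The members were 43 genes fixed by name, 23 of complement and 20 of coagulation and fibrinolysis, among 55836 genes in a table of bulk RNA-seq counts from mouse liver. All 43 passed the filter on low counts, as did 13597 genes in all. C57BL/6 male wild-type mice, 8 weeks old when bought, were fed for 8 weeks either a control diet (CD, named Chow Diet in the labels, 10 kcal% fat) or a diet that models metabolic dysfunction-associated steatohepatitis (MD, in which fat gave 40 kcal% and fructose 20 kcal%, with cholesterol at 2%). Over the same time they were gavaged with polyethylene (PE) microplastic particles of 10 to 150 µm, at 2 mg per mouse and day, or with the vehicle (Veh). Each mouse gave 1 liver library, which made 4 libraries for CD + Veh and 5 each for MD + Veh, CD + PE and MD + PE. Libraries of the vehicle groups held 13406037 to 15456729 counts and those of the PE groups 10398820 to 12757617, so depth moved with PE, and its part in the PE comparisons was not tested. The study asked how PE acts on the liver with and without the MD. Mice of a group were housed together, so cage and group cannot be told apart. Library numbers also followed the groups, and within each treatment the MD came after the CD. Neither PE nor diet can therefore be told apart from library order.

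Complement is started by recognition molecules that bind immune complexes or sugars and activate serine proteases. These proteases cleave C4, C2 and C3, and cleavage of C5 then starts the pore of C5b to C9. Coagulation is a chain of proteases, several of which need a vitamin K-dependent modification made in the hepatocyte, that ends in thrombin, the enzyme that turns fibrinogen into fibrin. Hepatocytes secrete most of these proteins, while C1q and properdin come from macrophages and other myeloid cells. Several of the hepatocyte genes, fibrinogen among them, are acute-phase genes that respond to interleukin-6 through STAT3.

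The 3 fibrinogen genes lie side by side on mouse chromosome 3 (GRCm39, GENCODE vM39): Fgg from 82915030 to 82922363 on the plus strand, Fga from 82933383 to 82940934 on the plus strand and Fgb from 82947448 to 82957170 on the minus strand. Gaps of 11019 and 6513 bases separate them. The sequences just before the starts of Fgb and Fgg are shown because the 3 chains are encoded at 1 locus and were all lower on the MD in both diet comparisons. Capitals mark the short motif CTGGGAA, an element of the type bound by STAT3, searched on both strands. For Fgb and Fgg the 250 bases before the start of the canonical transcript are given, at chr3:82957171-82957420 (minus strand) and chr3:82914781-82915030 (plus strand). The canonical start of Fga lies downstream of other annotated Fga transcripts, and no sequence is given for it.
Fgb promoter: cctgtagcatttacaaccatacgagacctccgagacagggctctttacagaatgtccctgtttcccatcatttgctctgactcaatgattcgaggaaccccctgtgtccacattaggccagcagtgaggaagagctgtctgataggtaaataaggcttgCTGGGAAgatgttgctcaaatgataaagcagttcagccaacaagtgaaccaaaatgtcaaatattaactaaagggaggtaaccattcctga
Fgg promoter: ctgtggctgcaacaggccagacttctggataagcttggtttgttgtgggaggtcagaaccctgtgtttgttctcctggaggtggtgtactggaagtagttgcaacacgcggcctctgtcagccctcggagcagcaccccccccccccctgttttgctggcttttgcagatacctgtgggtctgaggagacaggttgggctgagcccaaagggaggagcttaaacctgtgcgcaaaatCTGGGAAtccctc
CTGGGAA began 91 bases before the Fgb start and 13 bases before the Fgg start, and none was found in the same window before Fga. Of the 43 members, 7 (16.3%) had CTGGGAA within 250 bases before the start, against 9.85% of 13455 genes tested. A C/EBP core, TTGCNNCAA, was in 2 members (4.65% against 1.57%), Fga among them, and CCAAT in 13 (30.2% against 36.0%), none of them a fibrinogen gene. A match is a string of letters and was not tested as a binding site.

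Levels below are CPM, counts scaled to the library size after TMM normalisation. In CD + Veh the members took a median of 2.54% of all counts for coagulation and 1.57% for complement. Per kilobase of transcript, the 3 fibrinogen genes ranked first among the 43 in CD + Veh, with 1765 CPM per kb for Fgg, 1761 for Fga and 1330 for Fgb. Vtn, which encodes vitronectin, followed with 1247, F2 (prothrombin) with 899.5 and C3 with 893 CPM per kb. The lowest were C1qb (10.7) and Cfp (7.85), both expressed by myeloid cells. Hepatocyte markers were abundant in every library, with Alb at a mean of 46441 CPM, while the summed markers reached at most 4.32 CPM for neutrophils and 4.42 CPM for platelets in any library.

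Some libraries stood apart before any test. CD + PE replicate 2 carried 728 CPM summed over 9 Kupffer cell markers (the resident macrophages of the liver), against 89.6 to 133 CPM in the other 4 libraries of its group. MD + Veh replicate 1 carried 2505 CPM over 6 skeletal muscle markers, with 159 and 120 CPM in replicates 2 and 3, and CD + PE replicate 1 carried 360.4 CPM. MD + PE replicate 4 carried 214 CPM over 8 markers of monocytes and lipid-associated macrophages, with Spp1 at 85.2 CPM and Gpnmb at 37.9 CPM, against 47.8 to 83.5 CPM summed in the other 18 libraries. A clock score, the mean log2 CPM of Bmal1, Npas2 and Clock minus that of 6 genes of the opposite phase, lay between -5.09 and -3.86 for the CD and between -2.59 and -0.09 for the MD under vehicle, which do not overlap. In CD + PE it lay between -3.41 and 0.59 and in MD + PE between -2.27 and -0.11, which overlap. The scores of CD + Veh and CD + PE did not overlap either. Where a member lost its call without one of these libraries, or with the clock score in the fit, that is said beside its values.

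Fibrinogen transcripts were lower on the MD. A gene counts as called where edgeR gave it an adjusted p under 0.05 together with a log2 fold change of 0.38 or more in size. Under vehicle, 10 of the 43 members were called, all lower on the MD, where 10.4% of all genes tested were called and 5.63% were called lower. Under PE, 8 were called, again all lower, against 4.61% of all genes and 2.92% in that direction. The median log2 fold change of the 43 was -0.23 under vehicle and -0.23 under PE, while that of all genes was -0.00 and -0.02. By arm, 7 of 20 coagulation genes and 3 of 23 complement genes were called under vehicle, and 7 and 1 under PE. Leaving out 1 library gave 6 to 8 and 1 to 7 under vehicle, and 3 to 10 and 1 to 5 under PE. Those fits called 7.37% to 12.1% of all genes under vehicle and 3.7% to 7.25% under PE. With the clock score the counts were 3 and 2, and 5 and 1, where 3% and 4.21% of all genes were called. The highest complement counts came without CD + PE replicate 2, where C1qa, C1qb, C1qc and Cfp were called higher on the MD. Over all genes that fit called 12.1% under vehicle and 7.25% under PE. These diet comparisons share no library, but both rest on 1 estimate of the spread from all 19 libraries. Genes called in both were F10, F11, Fga, Fgb and Fgg, which is 50% of the calls under vehicle and 62.5% of those under PE. Of these 5, F10 and F11 were not called in either comparison with the clock score in the fit, and F10, F11 and Fgg were not called under PE without MD + PE replicate 4. In all, 31 members had a negative fold change in both, 8 a positive one in both, and 4 differed in sign. Taken singly, 32 of the 43 were negative under vehicle and 34 under PE, against 6873 and 7248 of all 13597 genes. Calls and signs in both comparisons together were not counted over all genes, so neither is read as particular to the members.

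Fgb, the Bβ chain of fibrinogen, had 5019, 4788, 5673 and 4784 CPM in the CD + Veh libraries, 4849, 3989, 4383, 4326 and 4261 in the CD + PE libraries, 2795, 2952, 3363, 3158 and 2886 in the MD + Veh libraries and 3208, 2999, 3384, 2618 and 2961 in the MD + PE libraries. Every CD library lay above every MD library. Its log2 fold change on the MD was -0.74 (SE 0.092, adjusted p = 2.75e-05) under vehicle and -0.52 (SE 0.087, adjusted p = 0.000916) under PE. The Aα chain gene Fga had 4707, 4265, 5089.6 and 4164 CPM in the CD + Veh libraries, 4910.2, 4534, 4443, 4639 and 4506 in the CD + PE libraries, 2868, 3324, 3461, 3458 and 3263 in the MD + Veh libraries and 3515, 3438, 3508, 2909 and 3235 in the MD + PE libraries. Again the 9 CD libraries all lay above the 10 MD libraries, whether or not PE was given. Fga fell by 0.48 (SE 0.087, adjusted p = 0.00109) under vehicle and by 0.47 (SE 0.083, adjusted p = 0.00146) under PE. Fgg, the γ chain, had 3452, 3125, 3605 and 3079 CPM in the CD + Veh libraries, 3395, 3058, 3205, 3146 and 3059.7 in the CD + PE libraries, 1979, 2323, 2498, 2424 and 2493 in the MD + Veh libraries and 2481, 2321, 2502, 2102 and 2375 in the MD + PE libraries. The diets were separated without overlap here too, and MD + Veh replicate 1 and MD + PE replicate 4 were the lowest of their groups. Fgg fell by 0.50 (SE 0.085, adjusted p = 0.000592) under vehicle and by 0.43 (SE 0.081, adjusted p = 0.00265) under PE. The 3 genes took a median of 1.30% of all counts on the CD and 0.872% on the MD under vehicle, and 1.16% and 0.895% under PE. With the clock score as a covariate, all 3 were still called under vehicle, with log2 fold changes of -0.74 for Fgb, -0.52 for Fga and -0.50 for Fgg, and under PE. Without MD + PE replicate 4 the Fgg value under PE was -0.38, just under the fold limit.

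**Figure D1:**
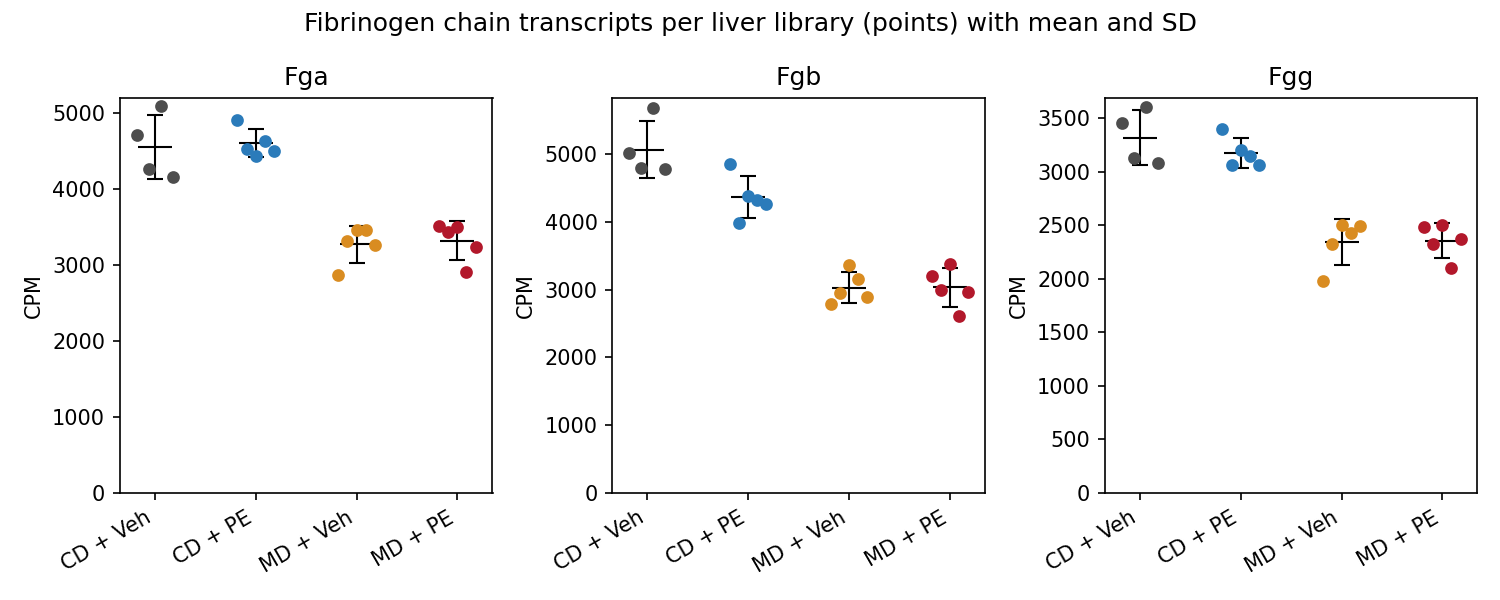
CPM of Fga, Fgb and Fgg (vertical axes, from 0) in each of the 19 liver libraries, by group; points are libraries, horizontal marks are group means and error bars are SD. In all 3 panels the CD libraries lie above the MD libraries, with Fgb between 3989 and 5673 CPM on the CD and between 2618 and 3384 CPM on the MD.

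The ratio of Fgb to Fga CPM was 1.07 to 1.15 for CD + Veh libraries, against 0.880 to 0.987 with PE on the CD, 0.884 to 0.975 with vehicle on the MD and 0.872 to 0.965 with PE on the MD. CD + Veh therefore overlapped none of the other 3 groups. The mean log2 ratio was 0.23 lower in CD + PE than in CD + Veh and 0.27 lower in MD + Veh (both p = 0.0159 by a two-sided exact permutation test, the smallest this design allows, adjusted p = 0.0582 over 44 ratio tests). The adjusted values miss 0.05, and the pairs were chosen with these data known. The same adjusted p was reached by Fgb to Fgg, in CD + PE and MD + Veh against CD + Veh and in MD + PE against CD + PE. It was also reached by C1qa to C1qb and C1qa to C1qc in MD + Veh against CD + Veh. Apart from the C8 ratios given below, the other ratio tests had larger adjusted p-values.

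Among the vitamin K-dependent proteases, F7 and F10 were called, F2 missed the fold limit and F9 was not called. F10, the factor X gene that makes the enzyme of the prothrombinase complex, had 514, 546, 563 and 556 CPM in the CD + Veh libraries, 493, 464, 516, 495 and 523 in the CD + PE libraries, 364, 374, 437, 426 and 477 in the MD + Veh libraries and 403, 333, 413, 337 and 394 in the MD + PE libraries. It was lower on the MD without overlap under vehicle and under PE. The log2 fold changes were -0.39 (SE 0.084, adjusted p = 0.0037) under vehicle and -0.41 (SE 0.079, adjusted p = 0.00363) under PE. F7, the protease that pairs with tissue factor, had 91.2, 87.99, 82.1 and 76.6 CPM in the CD + Veh libraries, 83.98, 67.6, 76.8, 81.3 and 75.4 in the CD + PE libraries, 59.4, 53.8, 55.6, 70.1 and 67.6 in the MD + Veh libraries and 61.9, 58.96, 66.8, 51.6 and 65.2 in the MD + PE libraries. MD + Veh lay wholly below CD + Veh, and MD + PE below CD + PE. F7 changed by -0.46 (SE 0.092, adjusted p = 0.00213) under vehicle and by -0.34 (SE 0.088, adjusted p = 0.0249) under PE, where it passed the p threshold and not the fold limit. Prothrombin (F2) averaged 1834 ± 69.7 CPM (SD, n = 4) on the CD under vehicle against 1447 ± 57.4 CPM (SD, n = 5) on the MD, with -0.34 (SE 0.069, adjusted p = 0.0023) on the log2 scale. The factor IX gene F9 averaged 177 ± 11.8 CPM (SD, n = 4) against 183 ± 23.7 CPM (SD, n = 5), with a 95% interval of the log2 fold change from -0.13 to 0.23. With the clock score in the fit, the vehicle values of F7 and F10 were -0.26 (adjusted p = 0.288) and -0.25 (adjusted p = 0.276), and the PE value of F10 was -0.37 (adjusted p = 0.0077), under the fold limit. Leaving out 1 library kept the vehicle call of F10 in 13 of 19 fits and its PE call in 17. The vehicle call was lost on leaving out MD + Veh replicate 1 or 2, MD + PE replicate 4, CD + PE replicate 1, or replicate 3 or 4 of CD + Veh, with the value nearest 0 at -0.33 (adjusted p = 0.0144) without MD + Veh replicate 1. The PE call was lost without MD + PE replicate 2 or 4, at -0.37 (adjusted p = 0.0138) and -0.36 (adjusted p = 0.0136). Fitting only the CD + Veh and MD + Veh libraries also took the vehicle value just under the fold limit, to -0.38 (adjusted p = 0.0149).

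The contact system, whose proteases and kininogens start coagulation on charged surfaces and release bradykinin, held 2 called genes of 5 under each treatment. Over all genes, 10.4% were called under vehicle (5.63% lower) and 4.61% under PE (2.92% lower). F11 (factor XI) had 104, 79.1, 91.98 and 80.1 CPM in the CD + Veh libraries, 103, 66.1, 72.7, 94.2 and 83.9 in the CD + PE libraries, 50.5, 52.3, 56.1, 54.3 and 64.6 in the MD + Veh libraries and 69.2, 48.9, 67.04, 45.9 and 68.6 in the MD + PE libraries. The groups were apart under vehicle and overlapped under PE. The log2 fold changes were -0.68 (SE 0.141, adjusted p = 0.00288) and -0.48 (SE 0.134, adjusted p = 0.0341). Under vehicle F11 was called in all 19 fits that left out 1 library, but with the clock score its value was -0.41 (adjusted p = 0.291). Under PE it was called in 14 of 19 such fits. That call was lost without CD + PE replicate 1, 4 or 5 or MD + PE replicate 2 or 4, with adjusted p from 0.0601 to 0.0921. It was also lost with the clock score, at -0.41 (adjusted p = 0.0734), and when only the CD + PE and MD + PE libraries were fitted, at -0.47 (adjusted p = 0.0909). Kng1, the larger of the kininogen signals, had 1650.3, 1842, 1838 and 1917 CPM in the CD + Veh libraries, 1986, 1634, 2061, 1983 and 2058 in the CD + PE libraries, 1247, 1419.8, 1465, 1399 and 1484 in the MD + Veh libraries and 1405, 1369.9, 1521, 1293 and 1466 in the MD + PE libraries. All CD libraries were above all MD libraries. It changed by -0.37 (SE 0.082, adjusted p = 0.00512) under vehicle, just under the fold limit, and by -0.46 (SE 0.078, adjusted p = 0.00102) under PE. Kng2 had 222, 238, 231 and 282 CPM in the CD + Veh libraries, 246, 193, 267, 247 and 274 in the CD + PE libraries, 151, 197, 179.6, 173 and 167 in the MD + Veh libraries and 178, 189, 199.9, 212 and 213 in the MD + PE libraries. It was apart under vehicle, with -0.48 (SE 0.099, adjusted p = 0.00252), and overlapped under PE, with -0.31 (SE 0.094, adjusted p = 0.0559). With the clock score the vehicle value of Kng2 was -0.25 (adjusted p = 0.378). The canonical transcripts of Kng1 and Kng2 share 28.2% and 28.8% of their 31-base words, so the split of reads between them is uncertain. F12 and Klkb1 were not called.

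Of the anticoagulant genes, Serpinc1, which encodes antithrombin, was called under PE. It had 1939.9, 2051, 2087 and 2099 CPM in the CD + Veh libraries, 2185, 1916, 2306, 2183 and 2160.2 in the CD + PE libraries, 1489.5, 1595, 1683, 1789.8 and 1799 in the MD + Veh libraries and 1730.3, 1549, 1742, 1350.4 and 1658 in the MD + PE libraries. MD libraries lay below CD libraries in both pairs of groups. The log2 fold changes were -0.29 (SE 0.086, adjusted p = 0.0291) under vehicle and -0.42 (SE 0.081, adjusted p = 0.00319) under PE. Without MD + PE replicate 4 the PE value was -0.35 (adjusted p = 0.00897), under the fold limit. Proc (protein C), Pros1 (protein S) and Serpind1 (heparin cofactor II) were not called, with log2 fold changes from -0.17 to 0.10 under vehicle. Plg, the plasminogen gene, and Serpinf2, which encodes the plasmin inhibitor α2-antiplasmin, passed the p threshold under vehicle at -0.28 (adjusted p = 0.0385) and -0.29 (adjusted p = 0.0480) and missed the fold limit. Under PE Serpinf2 passed it at -0.37 (adjusted p = 0.0162), again under the fold limit, and Plg had -0.24 and did not pass. Serpinf2 was called under PE without CD + PE replicate 2 or 5 or MD + PE replicate 3, at -0.39 to -0.44. F5 and F13b, a cofactor and a carrier subunit of the cross-linking enzyme, were not called in either diet comparison. With no fold limit, 12 coagulation genes passed under vehicle and 11 under PE, all of them lower on the MD, where 14.2% of all genes (8.04% lower) and 7.09% (4.59% lower) passed.

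**Figure D2:**
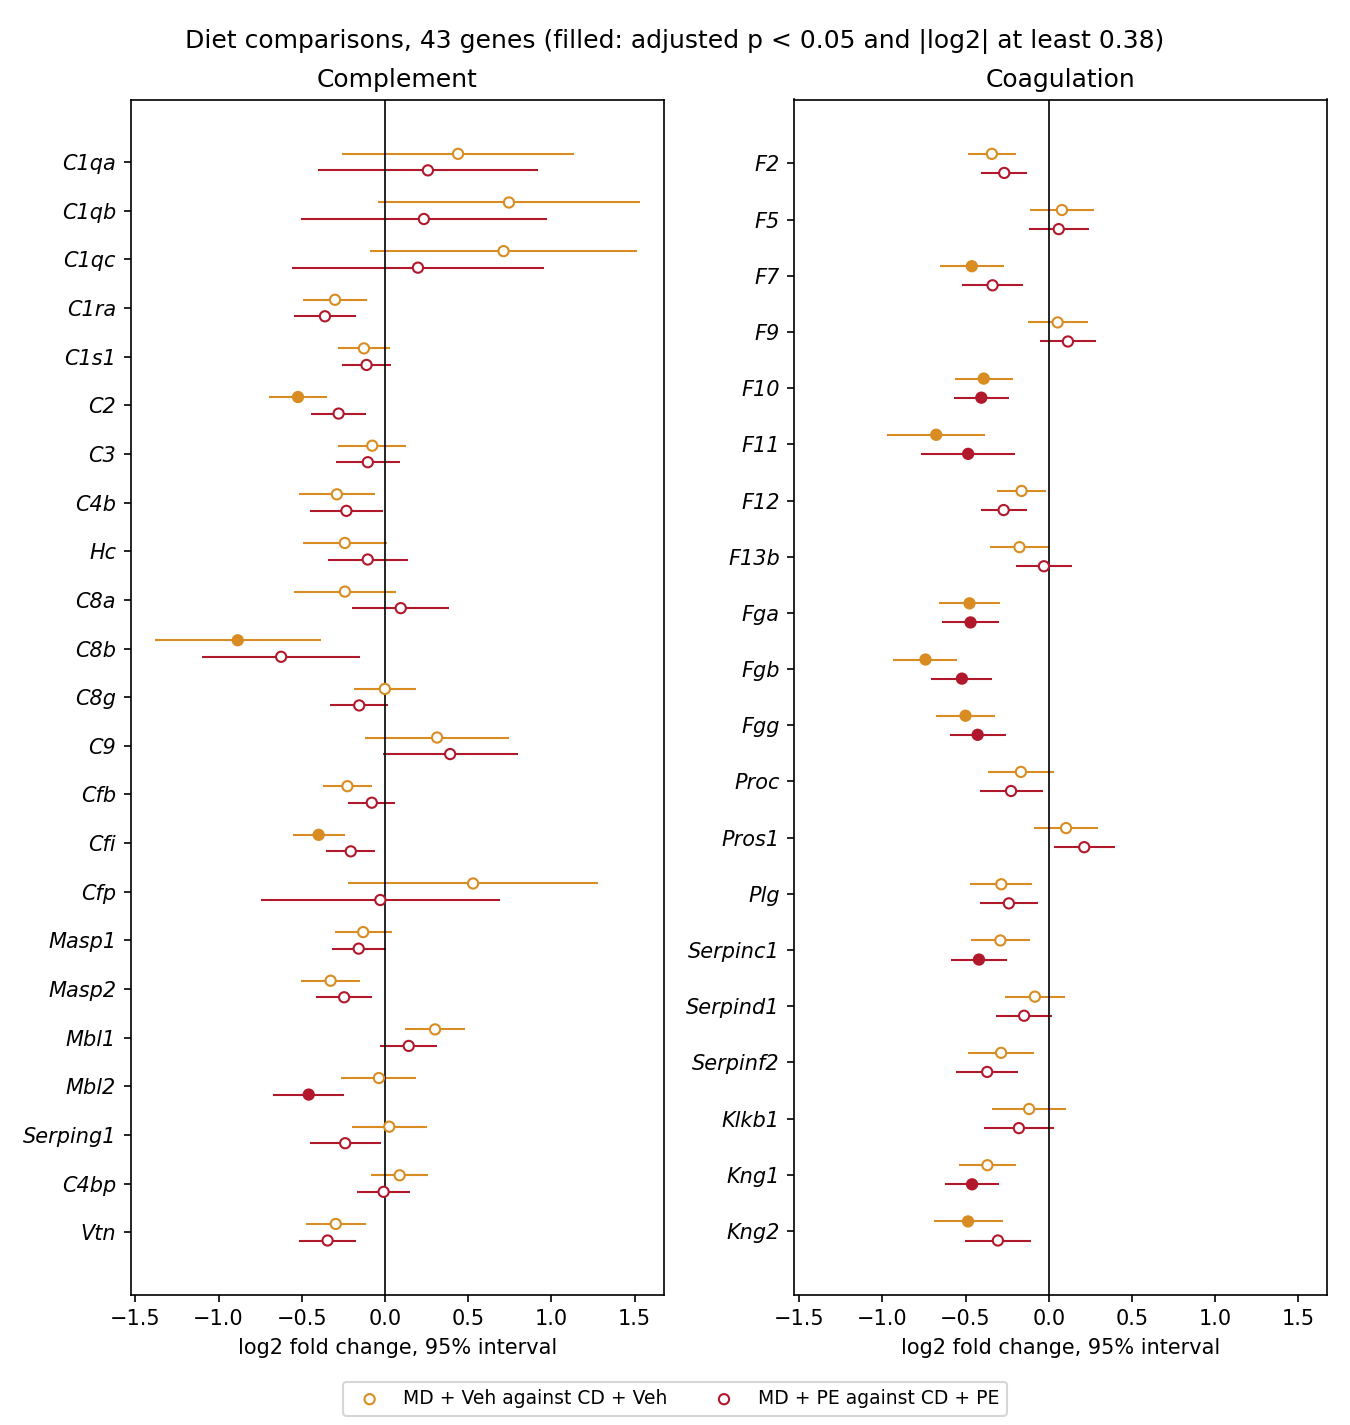
Log2 fold change on the MD (horizontal axes) with 95% intervals for the 23 complement and 20 coagulation genes, under vehicle (orange) and under PE (red); filled points passed an adjusted p of 0.05 and the fold limit of 0.38. The filled points all lie left of 0, with Fga, Fgb, Fgg, F10 and F11 filled under both treatments, and the C1q genes and Cfp have the widest intervals.

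On the complement side, the called genes were C2, Cfi and C8b under vehicle and Mbl2 under PE. C2, the serine protease of the classical C3 convertase, had 73.7, 74.2, 80.2 and 68.97 CPM in the CD + Veh libraries, 57.2, 66.3, 56.6, 62.9 and 58.7 in the CD + PE libraries, 49.4, 46.3, 51.97, 50.8 and 59.96 in the MD + Veh libraries and 56.99, 45.2, 49.8, 44.98 and 51.5 in the MD + PE libraries. CD + Veh lay above all other libraries, and the PE groups touched at their edges. The log2 fold changes on the MD were -0.52 (SE 0.082, adjusted p = 0.00032) under vehicle and -0.28 (SE 0.079, adjusted p = 0.0376) under PE. C2 shares 59.4% of its 31-base words with Gm20547, a gene annotated across C2 and Cfb on chromosome 17, so its own level is uncertain. Gm20547 took 28.8% of the counts of the pair on the CD and 25.5% on the MD under vehicle, and its own log2 fold change was -0.76 (adjusted p = 0.0228 by edgeR). Cfb, factor B of the alternative pathway, shares 66.0% of its words with Gm20547 and changed by -0.23 (SE 0.071, adjusted p = 0.0407) under vehicle. Cfi, the protease that inactivates C3b and C4b, had 685, 605, 720.3 and 583 CPM in the CD + Veh libraries, 564, 547, 589, 578 and 564 in the CD + PE libraries, 464, 491, 538, 499 and 467 in the MD + Veh libraries and 454, 500.3, 544, 454 and 509.6 in the MD + PE libraries. It was lower on the MD without overlap in both pairs, with -0.40 (SE 0.075, adjusted p = 0.00132) under vehicle and -0.21 (SE 0.071, adjusted p = 0.0887) under PE. With the clock score the vehicle value was -0.40 (adjusted p = 0.0630). The vehicle call was held in 15 of 19 fits that left out 1 library. It fell under the fold limit without CD + Veh replicate 1 or 3 or MD + Veh replicate 1 or 5, at -0.35 to -0.37, and without both MD + Veh replicates 4 and 5, at -0.37 (adjusted p = 0.0104).

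C3, on which all 3 activation routes converge, had 4514, 4482, 5219 and 4206 CPM in the CD + Veh libraries, 4751, 5706, 4761, 5473 and 4725 in the CD + PE libraries, 4379, 4252, 4197, 4966 and 4039 in the MD + Veh libraries and 4948, 5000.4, 4782, 4049 and 4849.6 in the MD + PE libraries. The 4 groups overlapped, and 95% intervals on the MD ran from -0.28 to 0.13 under vehicle and from -0.30 to 0.09 under PE. C4b and the C1 proteases C1ra and C1s1 had values of -0.29, -0.30 and -0.13 under vehicle, and C1ra passed the p threshold only (adjusted p = 0.0378). Under PE they had -0.23, -0.36 and -0.11, and C1ra again passed the p threshold only (adjusted p = 0.0174). It was called under PE in 4 of 19 fits that left out 1 library, without CD + PE replicate 3 or 5 or MD + PE replicate 3 or 5, at -0.38 to -0.41. With the clock score in the fit C4b was called under vehicle, at -0.54 (adjusted p = 0.0406). Reads of C4b, C1ra and C1s1 can be shared with the near copies C4a, C1rb and C1s2, of which C1rb reached at most 0.501 CPM in any library, C1s2 0.332 CPM and C4a 12.5 to 121 CPM. Vtn, which also blocks the terminal complex, changed by -0.30 (SE 0.086, adjusted p = 0.027) under vehicle and -0.34 (SE 0.081, adjusted p = 0.014) under PE. Serping1 (C1 inhibitor) and C4bp were not called.

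In the lectin pathway, Mbl2, which encodes mannose-binding lectin C, had 287, 296, 269 and 315 CPM in the CD + Veh libraries, 284, 317, 370.1, 317 and 344 in the CD + PE libraries, 233, 313, 327, 277 and 272 in the MD + Veh libraries and 216, 224, 203, 285 and 259 in the MD + PE libraries. All MD + PE libraries but replicate 4 lay below CD + PE, and the vehicle groups overlapped. Its log2 fold change was -0.04 (SE 0.107, adjusted p = 0.857) under vehicle and -0.46 (SE 0.102, adjusted p = 0.00921) under PE, and the difference between them was -0.42 (SE 0.148, adjusted p = 0.392). Mbl1, the other mannose-binding lectin, had 0.30 (SE 0.087, adjusted p = 0.0267) under vehicle, under the fold limit. Without CD + Veh replicate 3 it was called higher on the MD at 0.40 (adjusted p = 0.00386). Masp2, the protease carried by these lectins, was lower without overlap in both diet comparisons at -0.33 (adjusted p = 0.0148) and -0.25 (adjusted p = 0.0754). Mbl1 and Masp2 were singled out after their values were seen.

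Of the 5 terminal pathway genes, 1 was called under vehicle and 0 under PE, against 10.4% and 4.61% of all genes. No result about the pathway is read from this count. C8b, which encodes the β subunit of the C8 protein that anchors the pore, had 398, 326, 436 and 259 CPM in the CD + Veh libraries, 276, 292, 231, 358 and 254 in the CD + PE libraries, 213, 115, 191, 176 and 265 in the MD + Veh libraries and 223, 134, 252.4, 106 and 199 in the MD + PE libraries. The highest MD + Veh library (265 CPM) exceeded the lowest CD + Veh library (259 CPM), so the groups touched. The log2 fold change was -0.88 (SE 0.238, adjusted p = 0.0173) under vehicle and -0.62 (SE 0.227, adjusted p = 0.107) under PE. The vehicle call was lost without CD + Veh replicate 1 or 3, with adjusted p up to 0.0623, and with the clock score in the fit the value was -0.72 (adjusted p = 0.283). C8a lies next to C8b on chromosome 4, 10.3 kb away, and had 709, 546, 797 and 435 CPM in the CD + Veh libraries, 634, 595, 569, 767 and 628 in the CD + PE libraries, 549.9, 434, 564, 536 and 547 in the MD + Veh libraries and 711, 599, 793, 556 and 745 in the MD + PE libraries. It was not called, with -0.24 (SE 0.147, adjusted p = 0.296) under vehicle and 0.10 (SE 0.139, adjusted p = 0.749) under PE. The ratio of C8b to C8a was 0.546 to 0.597 for CD + Veh libraries, 0.405 to 0.492 with PE on the CD, 0.264 to 0.484 with vehicle on the MD and 0.191 to 0.318 with PE on the MD. The mean log2 ratio was 0.70 lower in MD + Veh than in CD + Veh (p = 0.0159) and 0.77 lower in MD + PE than in CD + PE (p = 0.00794), without overlap, by exact permutation tests (adjusted p = 0.0582 for both). It was also 0.39 lower in CD + PE than in CD + Veh without overlap (exact permutation p = 0.0159, adjusted p = 0.0582). Between MD + PE and MD + Veh it was 0.46 lower, with overlap (exact permutation p = 0.0476, adjusted p = 0.116). The C8 genes and their ratios were singled out after their values were seen. C8g, the third C8 gene, was not called under vehicle, at -0.00 (SE 0.089, adjusted p = 0.997), with MD and CD libraries overlapping, nor under PE, at -0.15 (SE 0.084, adjusted p = 0.298). With PE on the MD it was lower without overlap, at -0.28 (SE 0.084, adjusted p = 0.0996), and was not called. The mean log2 ratio of C8a to C8g was 0.65 higher in MD + PE than in MD + Veh without overlap (exact permutation p = 0.00794, adjusted p = 0.0582). That of C8b to C8g was 0.91 lower in MD + Veh than in CD + Veh without overlap (exact permutation p = 0.0159, adjusted p = 0.0582). Hc, which encodes C5, had 822, 704, 951 and 613 CPM in the CD + Veh libraries, 714, 837, 670.2, 831 and 664 in the CD + PE libraries, 619, 580.3, 626, 709 and 732 in the MD + Veh libraries and 732, 673, 772, 567 and 710.3 in the MD + PE libraries, and its groups overlapped in every comparison. C9 was not called either, at 0.31 (SE 0.206, adjusted p = 0.334) under vehicle, with 304 to 684 CPM among the CD + Veh libraries.

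**Figure D3:**
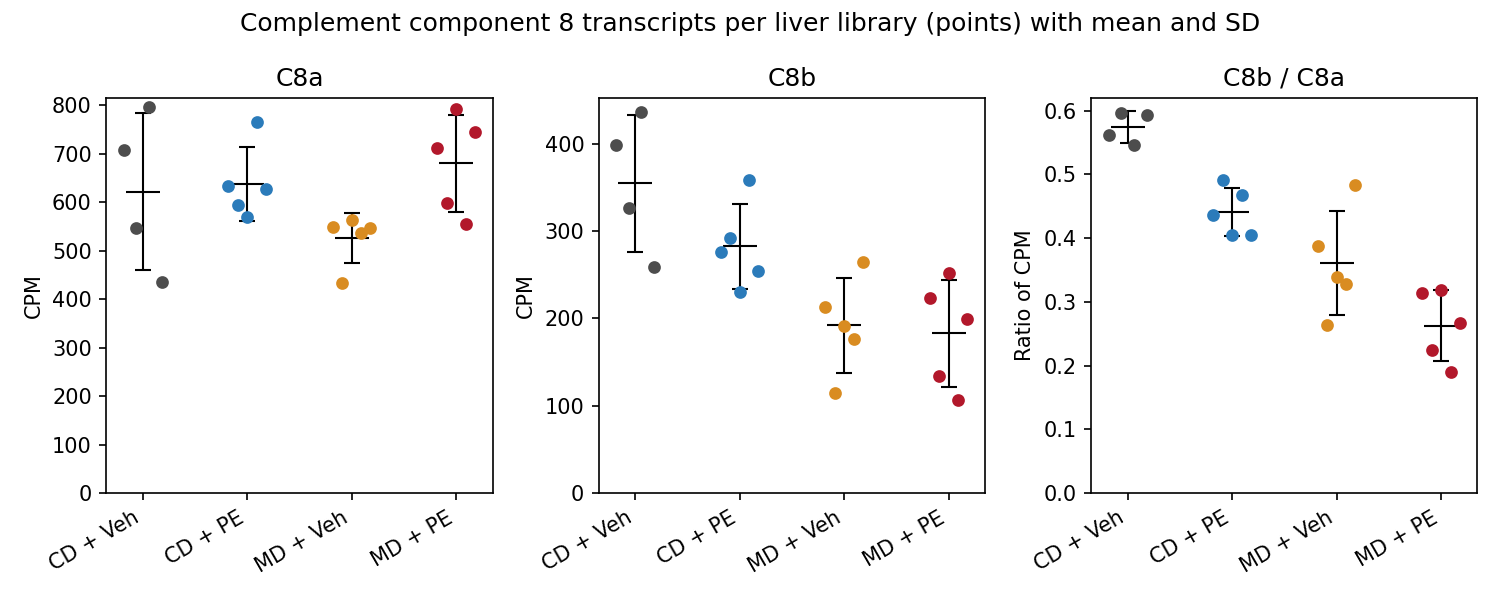
CPM of C8a and C8b and the ratio of C8b to C8a (vertical axes, from 0) in each of the 19 libraries by group; points are libraries, horizontal marks are means and error bars are SD. The C8a groups overlap, while the ratio runs from 0.546 to 0.597 in CD + Veh down to 0.191 to 0.318 in MD + PE.

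The C1q chains, which form the recognition molecule of the classical pathway and come from macrophages, varied widely within CD + PE. C1qa had 44.7, 27.97, 45.5 and 46.2 CPM in the CD + Veh libraries, 25.4, 101, 28.5, 25.7 and 23.7 in the CD + PE libraries, 50.6, 57.2, 68.8, 48.3 and 53.8 in the MD + Veh libraries and 57.1, 41.6, 39.3, 54.1 and 52.2 in the MD + PE libraries. C1qb had 27.02, 19.9, 28.6 and 32.5 CPM in the CD + Veh libraries, 18.7, 81.6, 17.7, 20.3 and 15.99 in the CD + PE libraries, 44.4, 51.04, 56.2, 35.7 and 38.9 in the MD + Veh libraries and 42.9, 29.6, 26.3, 44.9 and 37.6 in the MD + PE libraries. C1qc had 30.9, 18.8, 31.98 and 28.7 CPM in the CD + Veh libraries, 21.1, 81.4, 19.4, 16.9 and 12.9 in the CD + PE libraries, 42.9, 49.8, 55.9, 36.96 and 40.7 in the MD + Veh libraries and 43.8, 30.4, 26.4, 37.9 and 35.6 in the MD + PE libraries. In all 3 genes CD + PE replicate 2 was above every other library, and the 4 other CD + PE libraries were among the lowest. Under vehicle the MD libraries all lay above the CD libraries, with log2 fold changes of 0.44 (SE 0.333, adjusted p = 0.412) for C1qa, 0.75 (SE 0.375, adjusted p = 0.198) for C1qb and 0.71 (SE 0.383, adjusted p = 0.229) for C1qc. None was called when all 19 libraries shared 1 estimate of the spread. Without CD + PE replicate 2 the vehicle values were 0.44 (adjusted p = 0.0441), 0.75 (adjusted p = 0.00510) and 0.71 (adjusted p = 0.00912), and all 3 were called. C1qb and C1qc were also called when only the CD + Veh and MD + Veh libraries were fitted, at 0.76 (adjusted p = 0.0102) and 0.73 (adjusted p = 0.0135). Under PE, the values with all libraries were 0.26, 0.23 and 0.20. Without replicate 2 they were 0.92 (adjusted p = 0.000736), 1.00 (adjusted p = 0.00132) and 0.99 (adjusted p = 0.00203). Replicate 2 was singled out from these same values. Leaving out the highest CD + PE library raises the values under PE by construction and narrows the shared spread. The adjusted p-values without that library are therefore not independent support for a rise on the MD. Cfp (properdin, which stabilises the alternative convertase) was also high in that library, at 37.8 CPM in CD + PE replicate 2 against 8.19 to 9.33 CPM in the rest of its group. With all 19 libraries Cfp was not called, at 0.53 under vehicle and -0.03 under PE. Its log2 fold changes without that library were 0.53 (adjusted p = 0.0314) under vehicle and 0.71 (adjusted p = 0.0119) under PE. Cfp was singled out after its values were seen. F7, Kng2 and Serpinf2 were called under PE as well without that library, at -0.38 (adjusted p = 0.0105), -0.38 (adjusted p = 0.00687) and -0.42 (adjusted p = 0.00612).

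With all 19 libraries in the fit, single Kupffer cell markers were not called between the diets, while their sum separated the diets under vehicle. Summed over 9 Kupffer cell markers, of which Cd5l was the most abundant, the median was 185 CPM on the CD and 285 on the MD under vehicle, and 131 and 212 under PE. Under vehicle the sums ran from 104 to 188 CPM on the CD and from 215 to 315 CPM on the MD, without overlap. Under PE they ran from 179 to 324 CPM on the MD and from 89.6 to 133 CPM in the CD libraries other than replicate 2, which was above all at 728 CPM. None of the 9 was at 0 throughout. With all 19 libraries in the fit, 0 of the 9 were called by edgeR or DESeq2 in either diet comparison. Over all genes, edgeR called 10.4% under vehicle and 4.61% under PE. An unadjusted p below 0.05 was found for 1 of the 9 under vehicle and 0 under PE, against 3890 and 2954 of all 13597 genes. Of the 9, 1 had a negative log2 fold change under vehicle and 4 under PE. Calls of the 9 were not examined without CD + PE replicate 2. They can therefore be set only beside the C1q values from all 19 libraries. The 8 markers of monocytes and lipid-associated macrophages, of which Spp1 was the most abundant, summed to a median of 68.6 CPM on the CD and 65.2 on the MD under vehicle. Under PE the medians were 63.3 and 60.6. Of 7 tested, Gpnmb (3.72, adjusted p = 0.0226) and Itgax were called higher and Cd9 lower (-0.87, adjusted p = 0.0425) under vehicle, and Gpnmb higher under PE (6.93, adjusted p = 0.00191). Gpnmb was near the floor on the CD, at most 0.808 CPM in CD + Veh and 0.175 CPM in CD + PE, so the size of its fold changes is uncertain. In MD + PE it ran from 1.13 to 37.9 CPM, highest in replicate 4. DESeq2 called 3 of the 7 under vehicle and 4 under PE, against 1551 and 760 of all 13597 genes. In CD + PE replicate 2 the scavenger receptor gene Marco reached 255.9 CPM, against at most 40.1 CPM in the other 18 libraries. The sum of the 3 C1q genes per CPM of Clec4f, a Kupffer cell gene, was 1.73 to 2.04 on the CD and 1.53 to 3.14 on the MD under vehicle, which overlap. In bulk RNA, more cells of a type and more RNA per cell cannot be told apart, and the part of cell content in the C1q values was not tested.

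**Figure D4:**
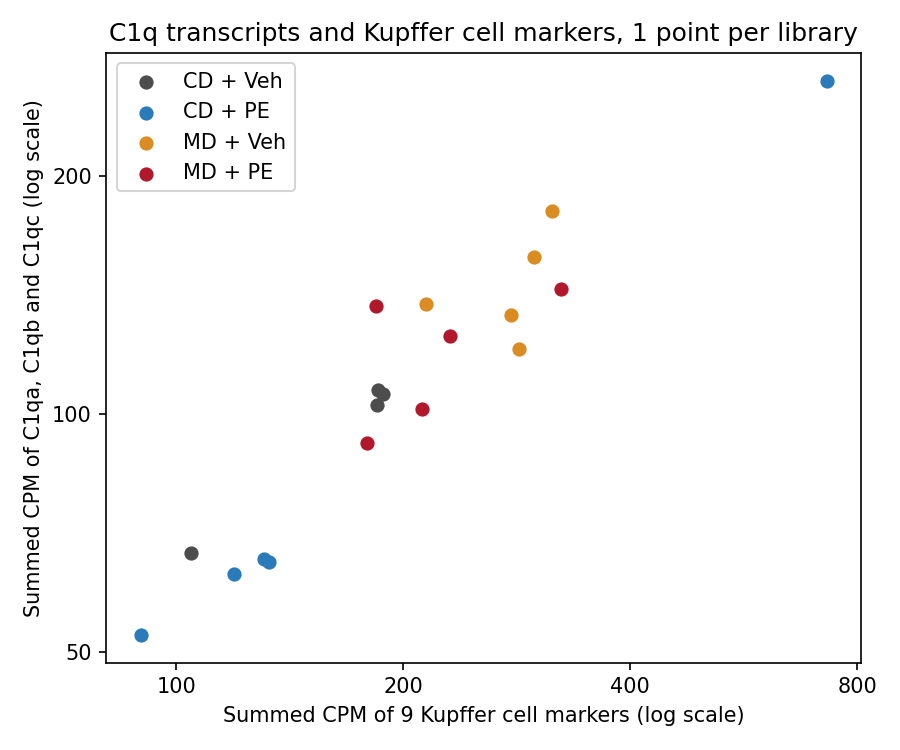
Summed CPM of C1qa, C1qb and C1qc (vertical, log scale) against the summed CPM of 9 Kupffer cell markers (horizontal, log scale), 1 point per library and 1 colour per group. CD + PE replicate 2 lies alone at 728 CPM of markers and 264 CPM of C1q, and the other 4 CD + PE libraries lie at the lower left.

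No member was called with PE on either diet. On the CD, 0 of 43 were called by edgeR and by DESeq2, where edgeR called 2.92% of all genes tested, and unadjusted p-values fell under 0.05 for 6 of them, against 17.5% of all genes. On the MD, 0 of 43 were called by either tool, against 1.08% of all genes by edgeR, and unadjusted p-values fell under 0.05 for 5 of them, against 15.7% of all genes. The median log2 fold change of the 43 was 0.00 on the CD and -0.00 on the MD. The 95% intervals of the 20 coagulation genes lay between -0.41 and 0.45 on the CD and between -0.31 and 0.42 on the MD, which bounds the changes that these libraries allow. Those of the complement genes were wider, from -0.83 to 0.98 on the CD and from -1.12 to 0.67 on the MD, with C8b and C1qb at the ends on the CD and C1qc and C8a at the ends on the MD. A count of 0 does not show that PE left these genes alone.

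On the CD, 2 of the 43 members, both of complement, passed the p threshold below the fold limit, near the share of all genes, 3.79%, that passed it with no fold limit. Mbl1 had 100.3, 107, 129 and 95.2 CPM in the CD + Veh libraries and 135, 135, 140.2, 143 and 141 in the CD + PE libraries, and the groups did not overlap. Its log2 fold change was 0.36 (SE 0.087, adjusted p = 0.0252), and on the MD, with 119.9, 122, 137, 142 and 145 CPM under vehicle and 156, 142, 159, 137 and 172 under PE, it was 0.20 (SE 0.082, adjusted p = 0.225). Without CD + Veh replicate 3, its highest library, Mbl1 was called at 0.46 (adjusted p = 0.00551), as it was without CD + PE replicate 1, at 0.38 (adjusted p = 0.0339). C2 was lower in every CD + PE library than in any CD + Veh library, at -0.30 (SE 0.083, adjusted p = 0.0487). F5, the cofactor of factor Xa, was at 0.26 (adjusted p = 0.128) on the CD and 0.24 (adjusted p = 0.173) on the MD, and with the clock score it was called on the CD at 0.42 (adjusted p = 0.0374). Clock scores of CD + Veh and CD + PE do not overlap, so that fit compares them at scores they do not share. Without CD + PE replicate 2, which was singled out by its high macrophage genes, C1q among them, C1qa was called on the CD at -0.67 (adjusted p = 0.0215). The fibrinogen genes gave log2 fold changes of 0.02 for Fga, -0.22 for Fgb and -0.06 for Fgg on the CD and of 0.02, 0.00 and 0.01 on the MD. The effect of PE did not differ between the diets for any member by the call rule, with 0 of 43 called by edgeR and DESeq2 and 2 at an unadjusted p below 0.05, as had 8.77% of all genes, where edgeR called 0.00735% of all genes, a single one, and DESeq2 78 of the same genes. The smallest p for this difference among the members was that of Mbl2, given above.

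**Figure D5:**
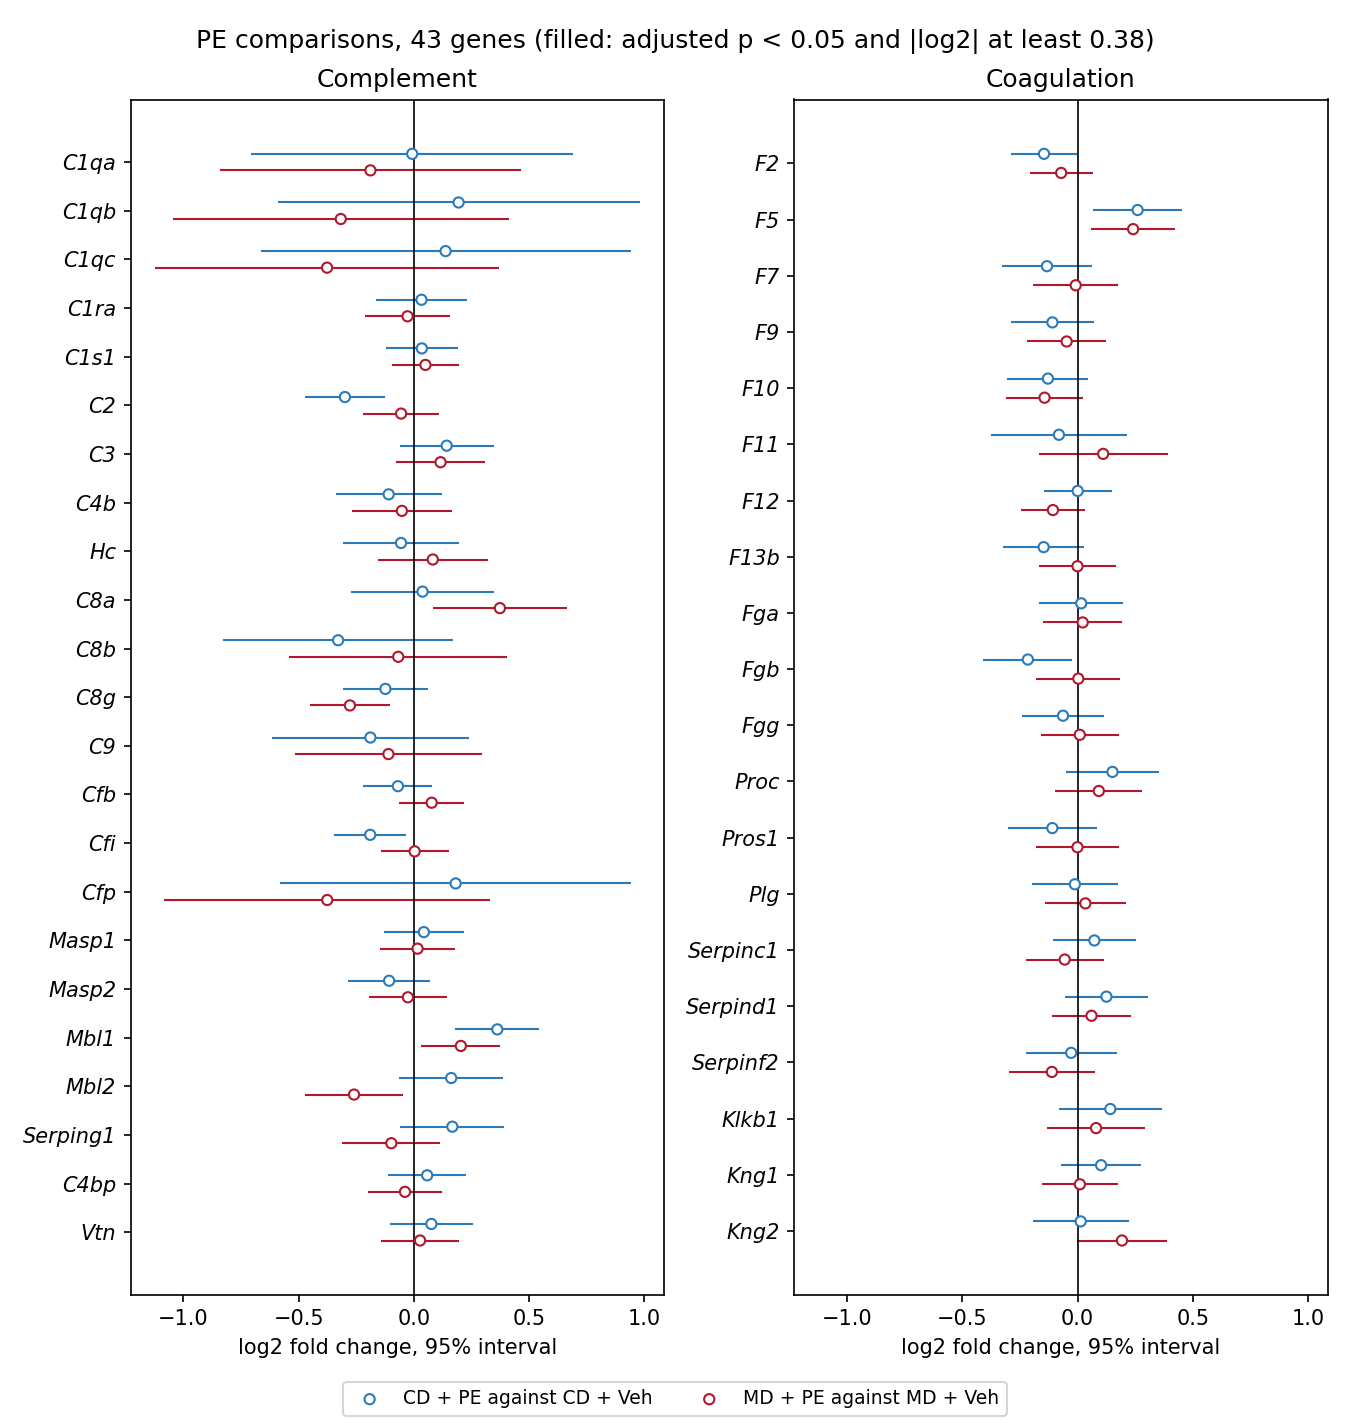
Log2 fold change with PE (horizontal axes) and 95% intervals for the 23 complement and 20 coagulation genes, on the CD (blue) and on the MD (red); points would be filled where a gene passed an adjusted p of 0.05 and the fold limit of 0.38. No point is filled, and the coagulation intervals stay between -0.41 and 0.45.

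Further genes of these systems moved in both directions. Of 18 tested genes on a second coagulation list, 3 were called under vehicle, against 10.4% of all genes, namely Hgfac (an activator of hepatocyte growth factor) at -0.68 (adjusted p = 0.000318), F3 (tissue factor) at -0.55 (adjusted p = 0.0428) and Procr (the endothelial protein C receptor) at 2.01 (adjusted p = 0.00322). Under PE 1 was called, against 4.61% of all genes, again Hgfac, at -0.68 (adjusted p = 0.000325). Of 25 tested genes on a second complement list, 3 were called under vehicle, all higher, and 2 under PE, shares near the 10.4% and 4.61% of all genes. Cfd, the factor D gene of the alternative pathway, rose from a mean of 0.638 to 119 CPM (adjusted p = 1.55e-07). Colec11, a lectin pathway collectin, and Itgax, a chain of complement receptor 4, rose by 0.55 (adjusted p = 0.0144) and 2.06 (adjusted p = 0.0355) on the log2 scale. Under PE, Cfd was again higher, and Cpn1, a carboxypeptidase that trims anaphylatoxins, was lower at -0.49 (adjusted p = 0.000261). Cfd is also an adipocyte gene. The defining adipocyte markers Adipoq, Plin1 and Lep did not pass the filter. Adipoq reached 4.17 CPM in MD + Veh replicate 1 and at most 0.557 CPM in any other library, and in MD + PE, where Cfd averaged 152 CPM, it stayed at or below 0.251 CPM and Lep was at 0. Of the 2 other genes on that list, Cidec, a lipid droplet gene, was higher at 3.45 (adjusted p = 0.000239) under vehicle and 4.43 (adjusted p = 1.83e-05) under PE. Car3, which averaged 1857 CPM in CD + Veh, was higher at 1.04 (adjusted p = 0.00182) on the MD under vehicle and at 1.02 (adjusted p = 0.00764) with PE on the CD. On the MD under PE, Car3 had 0.23 and was not called. The part of adipocyte content in the Cfd value was not tested. With PE, Tfpi2, an inhibitor of serine proteases, was lower on the MD at -0.43 (adjusted p = 0.00857) and was the single gene that edgeR called from these 2 lists in a PE comparison. With PE on the CD, DESeq2 also called F3, at -0.62 (adjusted p = 0.0316). With PE on the MD it called 1 gene of the second complement list, where edgeR called 0. For the difference in the PE effect between the diets it called 1 gene of the second coagulation list, where edgeR called 0.

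Acute-phase genes moved in both directions on the MD, with a median log2 fold change of 0.21 under vehicle and 0.18 under PE. Of 16 on the list, 4 were called lower and 3 higher on the MD under vehicle, and 1 lower and 4 higher under PE, where 10.4% and 4.61% of all genes were called. Apcs, which encodes serum amyloid P, was lower at -1.15 (adjusted p = 4.2e-05) and -1.04 (adjusted p = 0.000123), while Orm3 was higher at 3.08 (adjusted p = 5.82e-05) and 3.67 (adjusted p = 1.13e-05). Orm2 was higher in both as well, at 1.23 (adjusted p = 0.0450) and 2.00 (adjusted p = 0.00308). Under vehicle alone Saa3 was called higher and Orm1, Itih3 and Itih4 lower, and under PE alone Lcn2 and Saa4 were called higher. The difference between the treatments was called for 0 of the 16 by edgeR and DESeq2, with 1 at an unadjusted p below 0.05. CD + PE replicate 2 was high for several of these genes. Saa3 was at 21.6 CPM there, against 1.66 to 3.21 in the rest of its group. Lcn2 was at 11.5 CPM against 0.497 to 3.18, and Saa1 at 276 CPM against 22.1 to 50.7. Saa4, at 203 CPM, lay within the range of its group. The part of that library in the calls under PE was not tested. Among 12 genes of vitamin K-dependent carboxylation and liver transcription factors, 1 was called in each diet comparison, against 10.4% of all genes under vehicle and 4.61% under PE. No result about this list is read from these counts. Nr1h4, the bile acid receptor FXR, was called lower under vehicle at -0.53 (adjusted p = 0.00108) and had -0.30 (adjusted p = 0.0595) under PE. Cebpa was called lower under PE at -0.40 (adjusted p = 0.00737), and by DESeq2 it was just under the fold limit at -0.38 (adjusted p = 0.000389). Stat3 was not called, at -0.26 (adjusted p = 0.098) under vehicle. Ggcx and Vkorc1, the carboxylase and the reductase of the vitamin K cycle, were at 0.02 and -0.11. Of PE comparisons, the 1 call on this list was Vkorc1l1 on the CD at -0.39 (adjusted p = 0.0336), where 2.92% of all genes were called.

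Part of the hepatocyte markers were lower on the MD too. Of 7 tested, 3 were called lower under vehicle, where 5.63% of all genes were, and 4 under PE, where 2.92% were. Alb was lower by 0.48 and 0.62 on the log2 scale (adjusted p = 0.0324 and 0.00981) and Apoa1 by 0.42 and 0.48 (adjusted p = 0.0106 and 0.00527). Ttr, which encodes transthyretin, had -0.37 (adjusted p = 0.0158), under the fold limit, and -0.52 (adjusted p = 0.00191). Apob, the apolipoprotein B gene, was not called and had positive values, 0.17 (adjusted p = 0.216) and 0.17 (adjusted p = 0.229). The 7 markers summed had a median of 78953 CPM on the CD and 62847 on the MD under vehicle, and of 78705 and 54387 under PE, most of it Alb. Ass1, a urea cycle enzyme on the same list, was called lower in both diet comparisons and also with PE, at -0.56 (adjusted p = 0.0191) on the CD and -0.95 (adjusted p = 0.000611) on the MD, where no member was called. The part of hepatocyte RNA content in these values was not tested.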

How the data were processed

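Liver RNA from 19 mice was sequenced after poly(A) selection. According to the methods of the study, the authors trimmed reads with fastp 0.23.4 and quantified them with Salmon 1.10.3 against the GRCm39 GENCODE transcriptome, with tximport used for gene-level totals. They deposited estimated counts for each gene as whole numbers. The GENCODE release is not given in the sources used here. Counts were fitted with the edgeR 4.0.16 quasi-likelihood test (R 4.3.3) with TMM normalisation over all 19 libraries, after its filter on low counts, and p-values were adjusted by Benjamini-Hochberg over 13597 genes. DESeq2 1.42.0, RLE normalisation, other filters, other sets of libraries, a replicate block and a 2-level term for library numbers 39 to 45 against 46 to 57 were alternatives. Leaving out later MD + Veh libraries, giving counts without CD + PE replicate 2 for C1q and Cfp, and the clock covariate were added after the data were seen. The scripts were tested on simulated data. Ratios were compared with exact permutation tests over libraries (scipy 1.17.1).

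The members and lists were chosen with earlier results of these data known. Values per library are given for up to 8 called members of each comparison with the smallest p and, always, for C1qa, C1qb, C1qc, C3, Hc, Fga, Fgb and Fgg; C8a, C8b, C8g, Cfp, Mbl1, C9 and the ratios were chosen after values were seen. Genes that edgeR called on the other complement, coagulation, acute-phase and carboxylation lists are named, and cell type markers are given as lists with examples. Of these lists 2 genes are not reported here. Promoter sequences and transcripts are from the GRCm39 reference. Reads of 8 members can be shared with near copies, found as over 5% of 31-base words in common. Over 27 pairs of libraries sharing a replicate number, the median residual correlation was 0.0293, with 6 pairs above 0.1. The numbers were taken not to pair the mice. Each library is 1 mouse, so the p-values measure the spread between mice within a cage.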

Additional observations from a re-analysis of the deposited data

Results flagged for a closer look

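In 8 of 92 groups of libraries examined over 23 members, the highest or lowest library lay farther from the rest than Dixon's 95% limit allows. Chance alone marks about 1 group in 20, but 6 of these members, C8a and Cfp among them, were chosen after their values were seen, so the count cannot be read against that share. Of the 8 groups, 5 were marked by CD + PE replicate 2, which had 101 CPM of C1qa against 23.7 to 28.5 CPM in the rest of its group, 81.6 CPM of C1qb against at most 20.3, 81.4 CPM of C1qc against 12.9 to 21.1 and 37.8 CPM of Cfp against 8.19 to 9.33. The same library was the lowest for Kng1, at 1634 CPM against 1983 to 2061. CD + Veh replicate 2 was low for C1qa, at 27.97 CPM against 44.7 to 46.2. MD + PE replicate 4 was low for C3, at 4049 CPM against 4782 to 5000.4. MD + Veh replicate 2 was low for C8a, at 434 CPM against 536 to 564.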

How the results depend on the processing

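No called member reversed its direction under any alternative run. Normalisation, the filters on low counts and DESeq2 left every count of called members within 1.5 times of its value. Without a minimum fold, the calls in complement were 2 rather than 0 for PE on the CD, 8 rather than 3 for the MD under vehicle and 4 rather than 1 under PE, and in coagulation 12 and 11 rather than 7 and 7, where 3.79%, 14.2% and 7.09% of all genes passed. Fitting only the groups compared gave 5 complement calls under vehicle, where 11.7% of all genes were called. With the clock score, coagulation calls were 3 under vehicle and 1 for PE on the CD (F5). Calls over all genes were then 408 rather than 1410 under vehicle and 300 rather than 397 for PE on the CD.

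Leaving out 1 library gave 0 to 1 complement calls for PE on the CD, 1 to 7 for the MD under vehicle (lowest without CD + Veh replicate 1, highest without CD + PE replicate 2) and 1 to 5 under PE (highest without CD + PE replicate 2). Without CD + PE replicate 2, itself singled out by high values of these genes, C1qa, C1qb, C1qc and Cfp were called higher on the MD in both diet comparisons. Coagulation calls under PE ranged from 3 without MD + PE replicate 4 to 10 without CD + PE replicate 2, where 3.88% and 7.25% of all genes were called. With the replicate block, coagulation calls were 8 under vehicle (Kng1 added, -0.39) and 7 under PE, and complement calls 3 and 1; of 27 same-number pairs 6 had residual correlations above 0.1 (median 0.0293). With a 2-level term for library numbers 39 to 45 against 46 to 57, which differs within a group only in MD + Veh (3 libraries against 2), calls over all genes for PE were 37 rather than 397 on the CD and 33 rather than 147 on the MD. For PE on the MD, DESeq2 called 292 of the same 13597 genes, the fit of only those groups 73, and keeping 3 MD + Veh libraries 424. Leaving out 1 library took this count from 56 to 243, that for PE on the CD as low as 215, and that for the MD under PE as high as 987 (without CD + PE replicate 2). The cause of these changes was not tested. The least abundant members, Cfp and the C1q genes, rest on the fewest counts, and the part of depth in their values was not tested.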
